A study of Mus musculus with 16 samples.

Results

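The genes described here mark the endothelium, the cell layer that lines blood vessels and the heart. A list of 37 such genes was taken, and a gene entered through a probe set that the platform annotation assigns to this gene alone. All 37 were found, each with 1 probe set, among the 19937 genes that a probe set names alone. They were split into 32 pan-endothelial genes, 2 endocardial genes (Nfatc1 and Npr3) and 3 coronary genes (Apln, Fabp4 and Gja4). RNA of dissected whole hearts from C57BL/6 embryos was hybridised to Affymetrix Mouse Gene ST arrays, in 4 groups of 4 hearts. Mutant hearts were Chd7 fl/fl;Mesp1-Cre at E11.5 or E13.5, in which Cre recombinase under the Mesp1 promoter removes Chd7, a chromatin remodeller, from early cardiac mesoderm and its descendants, among them endocardium and myocardium. Control hearts of the same stages are WT in the labels and Chd7+/+;Mesp1-Cre in the paper, whereas the cross named in the labels, Chd7 fl/fl with Chd7 fl/+;Mesp1-Cre, cannot yield Chd7+/+ embryos, and the genotype of the controls is therefore uncertain. Each sample is labelled as a separate heart, and nothing says which hearts were littermates.

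Endothelial cells hold together through cadherin and claudin junctions, and respond to VEGF, angiopoietin and apelin through receptors on their surface. The endocardium is the endothelial lining of the heart chambers and valves, and expresses Nfatc1 and Npr3. Coronary vessels form later, within the growing ventricular wall, and carry Apln, Fabp4 and Gja4 in sprouting, capillary and arterial cells. In RNA of whole hearts, fewer cells of a type and less RNA per cell cannot be told apart.

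Chd7 itself was downregulated in mutant hearts at E11.5 (log2 FC -1.29, adjusted p = 0.00132) and at E13.5 (log2 FC -1.08, adjusted p = 0.0209). These values are of the brightest probe set that names Chd7 alone. The paper lists Chd7 with a larger fall and a smaller adjusted p at both stages. Over the alternatives run its log2 FC at the earlier stage ran from -1.38 to -1.11, and at the later from -1.16 to -0.80. The call was lost with the stage fitted alone at E11.5 (adjusted p = 0.0708) and in 7 alternatives at E13.5 (adjusted p between 0.0561 and 0.129), among them leaving out mutant replicate 3 or 4 or control replicate 1 or 4. The endothelial markers Pecam1, Cdh5, Kdr, Tie1 and Tek had log2 values of 9.71 to 12.10 in the 16 hearts, where array medians were 6.96 to 7.12. Cldn5, of the same marker list, was lower, at 7.06 to 7.39 in control and 7.24 to 8.13 in mutant hearts at E11.5. At E13.5 it was 8.66 to 9.14 and 8.77 to 9.20. None of 5 cardiomyocyte markers was called at either stage, where 0.15% of all genes or fewer were called in a direction. At E11.5, mutant replicate 3 alone carried 81.4% of the first principal component of the 8 hearts, and mutant replicate 4 had a median difference of 1.03 (log2) from the control mean over 10 hypoxia-responsive genes, where the 4 control hearts lay between -0.03 and 0.05. At E13.5, mutant replicate 3 had the lowest value of the 8 hearts for 19 of the 37 genes. Mutant E13.5 replicate 1 carried 47.4% of the first component of its stage. An earlier analysis of these data had set apart mutant E11.5 replicates 3 and 4 and control E13.5 replicate 1, and counts of calls are also given without them. The basis for control E13.5 replicate 1, which carried 4.73% of that component, was not found again here. The labels give no sex, and it was uneven by Y-linked genes: their mean log2 level at E11.5 was 8.33 to 8.93 in all 4 control hearts and 8.26 and 8.53 in mutant replicates 3 and 2, but 5.20 and 4.63 in mutant replicates 1 and 4. At E13.5 control replicates 4 and 5 and mutant replicate 4 had 9.24 to 9.31, and the other hearts 5.40 or less.

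At E11.5, 1 of the 37 genes was downregulated in mutant hearts, Cd34, and 0 were upregulated. The paper lists Cd34 as lower at E11.5 with the same adjusted p, from the same arrays, so this call is no independent result. A gene was called when its adjusted p was under 0.05 and its log2 FC over 0.5 in size. Among all genes tested, 0.15% were called lower and 0.1% higher. At an unadjusted p under 0.05, 4 members were lower and 2 higher, where 4.77% and 4.57% of all genes were. Of the 37 genes 22 had a log2 FC below 0, where 49.1% of all genes did. The median over the 37 was -0.04, from -0.65 to 0.53, and over all genes it was 0.00. All mutant hearts lay below all control hearts for 2 members, Cd34 and Tek, and above them for 0, where 1.94% and 1.99% of all genes did so. The groups did not separate: the median was -0.03 for the 32 pan-endothelial genes, -0.10 for the 2 endocardial genes and -0.02 for the 3 coronary genes.

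**Figure D1:**
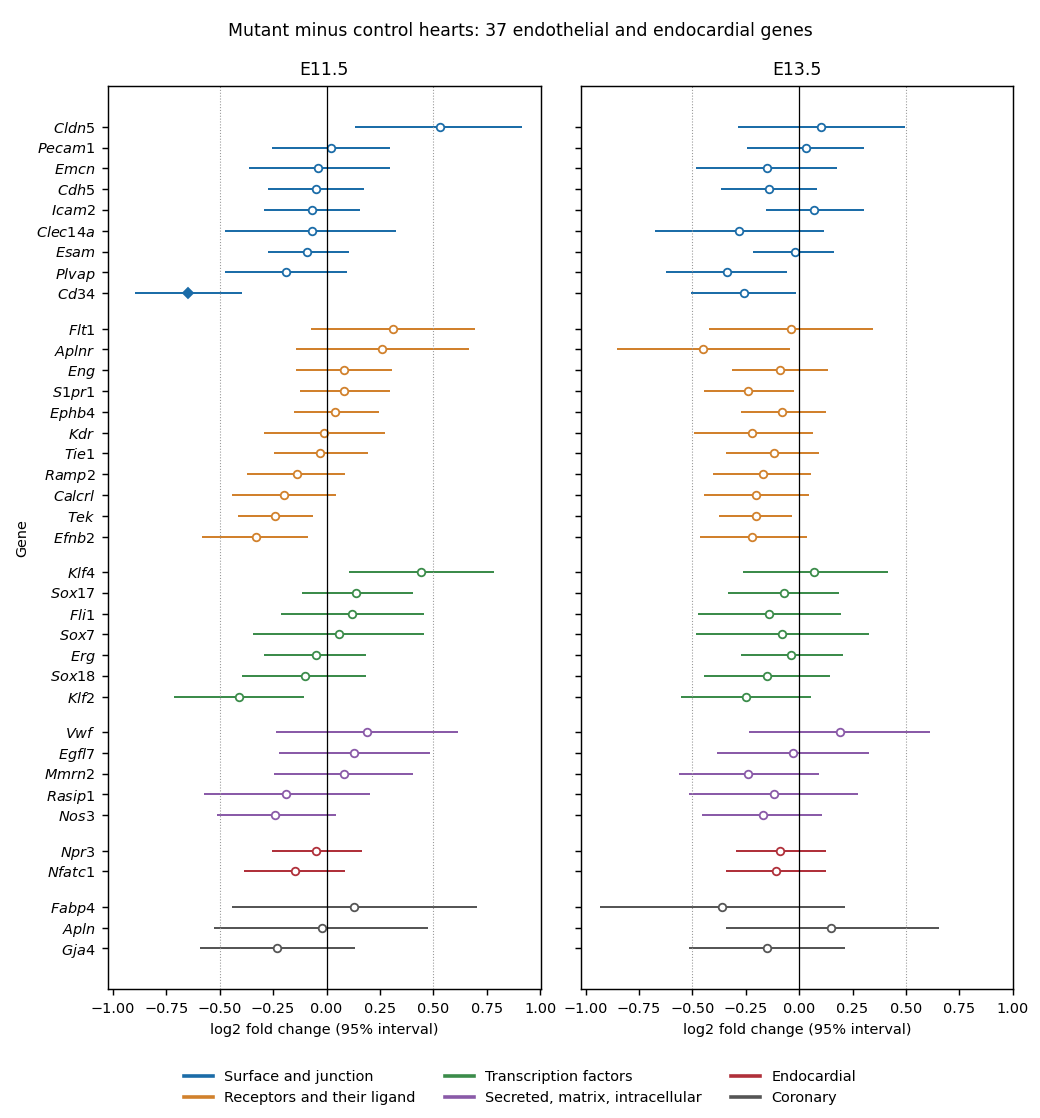
Log2 fold change of mutant over control hearts (x axis) for each of the 37 genes (y axis), at E11.5 on the left and E13.5 on the right, with 95% intervals from limma and colours for the role of the gene. Dotted lines mark 0.5 in size and a filled diamond marks a called gene, which is Cd34 at E11.5 alone; at E13.5, 31 of 37 points lie below 0.

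Cd34 encodes a sialomucin on the surface of endothelial and haematopoietic progenitor cells. Its log2 expression was 10.56, 10.31, 10.59 and 10.51 in the control hearts at E11.5, and 10.00, 9.57, 10.11 and 9.70 in the mutant hearts. All mutant hearts were below all control hearts. The mutant level was 63.9% of the control level (log2 FC -0.65, standard error 0.11, limma adjusted p = 0.0277), and the exact permutation test gave its smallest possible p, 0.0286. At E13.5 control hearts had 11.91, 11.91, 11.90 and 11.95, and mutant hearts 11.66, 11.71, 11.56 and 11.69. The mutant hearts were again all below the controls, by a smaller distance (log2 FC -0.26, standard error 0.11), and the limma adjusted p was 1.00. The call at E11.5 was lost without mutant replicate 2 or 4, without control replicate 1, 3 or 4 (adjusted p between 0.0523 and 0.0857), and without the hearts set apart (log2 FC -0.71, adjusted p = 0.0611). With the Y-linked genes as a covariate the log2 FC was -0.64 and the adjusted p 0.0839.

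The promoter of Cd34 is shown because Cd34 was the member called between genotypes. That of Tie1 holds the most of the ETS core GGAAG among the members with a promoter listed, and that of Cldn5 is an example with none. The promoters of Efnb2, Klf2, Npr3 and Tek also held none. These sequences were chosen after the matches were counted. ETS factors such as Erg and Fli1, both members, are regulators of endothelial genes. Each window runs from 250 bases before to 50 after the start of the gene in RefSeq on GRCm38.p6, written 5′ to 3′ on the strand of the gene, with capitals for GGAAG or its reverse complement CTTCC.
Cd34 (chr1:194938571-194938870, plus strand): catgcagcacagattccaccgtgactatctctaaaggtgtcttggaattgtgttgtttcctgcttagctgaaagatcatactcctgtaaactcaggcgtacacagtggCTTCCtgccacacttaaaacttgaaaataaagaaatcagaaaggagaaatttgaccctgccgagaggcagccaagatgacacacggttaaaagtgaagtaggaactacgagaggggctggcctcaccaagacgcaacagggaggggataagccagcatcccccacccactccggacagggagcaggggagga
Tie1 (chr4:118489800-118490099, minus strand): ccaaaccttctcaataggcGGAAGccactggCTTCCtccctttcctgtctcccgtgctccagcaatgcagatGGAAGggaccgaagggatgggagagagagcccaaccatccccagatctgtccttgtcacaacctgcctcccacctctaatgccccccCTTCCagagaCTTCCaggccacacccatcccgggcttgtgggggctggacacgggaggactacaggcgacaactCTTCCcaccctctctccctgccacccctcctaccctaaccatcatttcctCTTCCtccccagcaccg
Cldn5 (chr16:18776597-18776896, plus strand): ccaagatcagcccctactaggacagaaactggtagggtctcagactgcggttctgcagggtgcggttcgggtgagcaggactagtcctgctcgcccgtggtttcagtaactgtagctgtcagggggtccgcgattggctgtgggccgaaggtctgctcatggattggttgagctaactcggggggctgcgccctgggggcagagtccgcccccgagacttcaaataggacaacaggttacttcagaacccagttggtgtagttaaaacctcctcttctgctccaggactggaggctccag
Cd34 held 1 match, Tie1 held 7 and Cldn5 held 0. The table listed 24 promoters of 20 of the 37 genes. GGAAG on either strand was in 17 of these 24 (70.8%) and in 71.4% of all 32851 promoters listed. The longer ETS string CCGGAA, which overlaps GGAAG where a G follows, was in 1 of the 24 (4.17%) and in 14.9% of all. The KLF core CACCC was in 70.8% of the member promoters and 57.5% of all, the SOX core ACAATG in 8.33% and 12.6%, and the GATA core AGATAA in 8.33% and 11.2%. A match is a string of letters in this window and not a measured site.

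The receptors of the list, with the ligand Efnb2, were 5 above 0 and 6 below 0 at E11.5, and none was called. Tek, the angiopoietin receptor, had 10.87, 10.98, 10.96 and 10.87 in control hearts and 10.74, 10.78, 10.59 and 10.61 in mutant hearts at E11.5. The mutant hearts were all below the controls, by a narrow distance (log2 FC -0.24, standard error 0.08, limma adjusted p = 0.312, exact permutation p = 0.0286). At E13.5 Tek was 11.27, 11.25, 11.29 and 11.22 in control hearts and 10.96, 11.05, 11.11 and 11.08 in mutant hearts. The groups were again apart (log2 FC -0.20, standard error 0.08, limma adjusted p = 1.00). Tie1, the related orphan receptor, had values of -0.03 and -0.12 (log2 FC) at the respective stages. Efnb2 encodes the arterial ephrin that binds Ephb4, the venous receptor. Efnb2 measured 10.00, 9.58, 10.13 and 9.93 in control and 9.64, 9.63, 9.50 and 9.55 in mutant hearts at E11.5. Control replicate 2 lay among the mutants, so the groups overlapped (log2 FC -0.33, standard error 0.11, limma adjusted p = 0.327). At E13.5 the log2 FC of Efnb2 was -0.22, with mutant hearts between 9.32 and 9.64 and control hearts between 9.67 and 9.80. Ephb4 had a log2 FC of 0.04 and -0.08 at the respective stages.

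Klf2 and Klf4 encode factors that are induced by blood flow in endothelium, and they lay on opposite sides of 0 at E11.5. Klf2 was 9.22, 9.21, 9.23 and 8.87 in control hearts and 8.95, 8.79, 8.76 and 8.36 in mutant hearts. The lowest control heart was below the highest mutant heart (log2 FC -0.41, standard error 0.14, limma adjusted p = 0.327). Klf4 was 8.07, 8.50, 8.15 and 8.07 in control hearts and 8.58, 8.55, 8.49 and 8.94 in mutant hearts. The highest control heart overlapped with the lowest mutant heart (log2 FC 0.44, standard error 0.16, limma adjusted p = 0.366). At E13.5 the log2 FC was -0.25 for Klf2 and 0.07 for Klf4, both with overlapping groups, and the sign of Klf4 turned without control E13.5 replicate 1 (-0.07). The ETS and SOX factors Erg, Fli1, Sox7, Sox17 and Sox18 had log2 FC values of -0.10 to 0.14 at E11.5, and of -0.15 to -0.04 at E13.5.

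Cldn5, a claudin of endothelial tight junctions, had the highest log2 FC of the 37 genes at E11.5. It was 7.33, 7.06, 7.39 and 7.14 in control hearts and 8.13, 7.57, 8.11 and 7.24 in mutant hearts. Mutant replicate 4 lay among the controls (log2 FC 0.53, standard error 0.18, limma adjusted p = 0.334, exact permutation p = 0.0857). At E13.5 control hearts had 8.66 to 9.14 and mutant hearts 8.77 to 9.20, which overlapped (log2 FC 0.10). The junction and adhesion genes Pecam1, Cdh5, Esam, Icam2 and Emcn had log2 FC values of -0.09 to 0.02 at the earlier stage and of -0.15 to 0.07 at the later one. The secreted and intracellular genes Vwf, Egfl7, Mmrn2, Rasip1 and Nos3 lay between -0.24 and 0.19 at either stage.

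**Figure D2:**
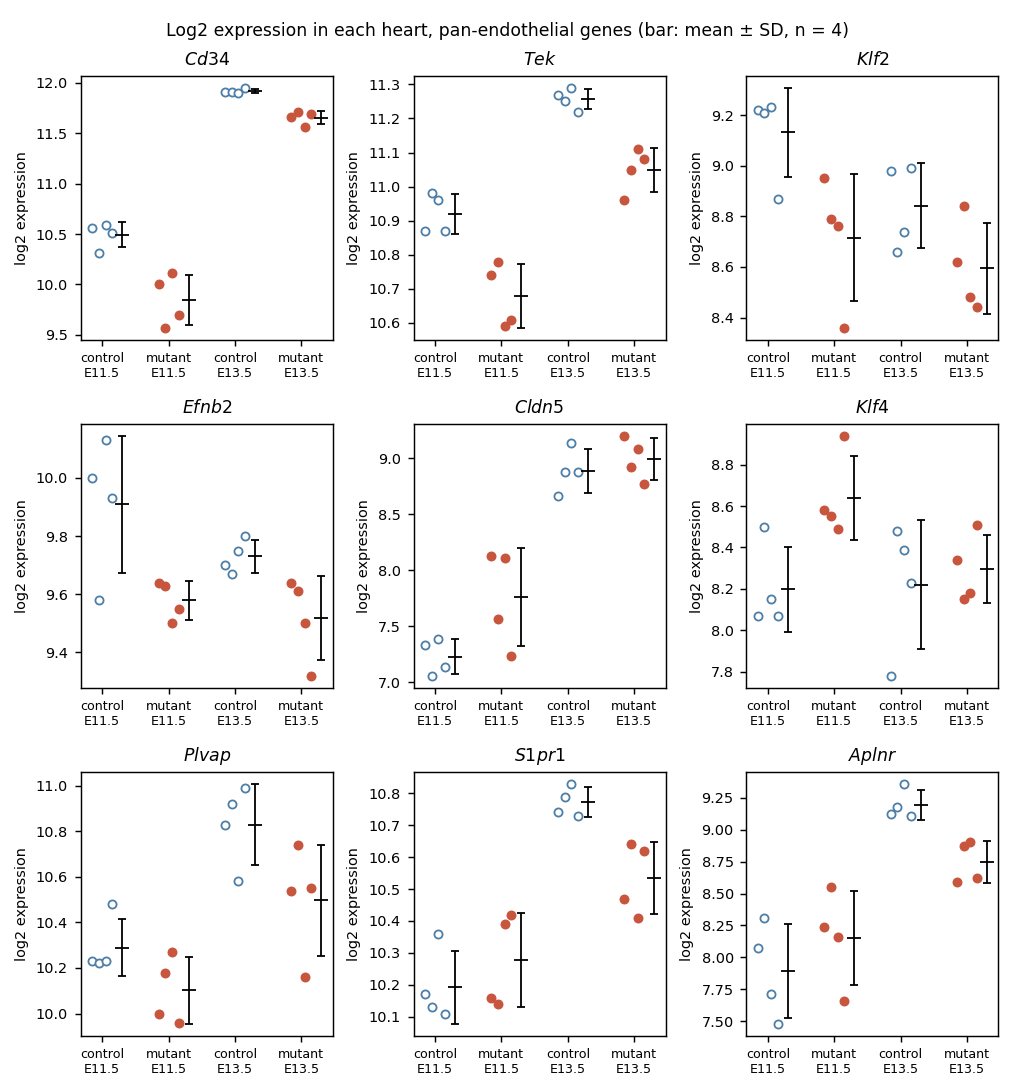
Log2 expression (y axis) of 9 pan-endothelial genes in each of the 16 hearts (x axis: group), with open circles for control and filled circles for mutant hearts, and bars for mean ± SD (n = 4). Cd34 and Tek have all mutant hearts below all control hearts at both stages, while Cldn5, Klf2 and Klf4 overlap.

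At E13.5, 0 of 37 genes were called by limma in either direction, where 0.0301% of all genes were called lower and 0.015% higher. The genes lay mostly on one side: 31 had a log2 FC below 0 and 6 above, where 48.6% of all genes were below 0. The median over the 37 was -0.14, from -0.45 to 0.19. At an unadjusted p under 0.05, 5 were lower (Tek, Plvap, S1pr1, Aplnr and Cd34) and 0 higher, where 1.98% and 1.97% of all genes were. All mutant hearts were below all control hearts in 8 genes and above them in 0, where this held for 2.02% and 2.06% of all genes. The 8 were Cd34, Kdr, Tie1, Tek, Aplnr, S1pr1, Efnb2 and Nos3, with Tie1 apart by less than the second decimal. Kdr, Nos3 and Efnb2 were also only narrowly apart. Their highest mutant hearts had 10.09, 9.66 and 9.64, and their lowest control hearts 10.10, 9.67 and 9.67. Of the 11 receptor genes all were below 0, with a median of -0.20. Members are expressed by the same cells and are no replicates, so these counts describe the list and carry no test.

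Aplnr is the apelin receptor, found on sprouting coronary and venous endothelium. At E13.5 it was 9.12, 9.18, 9.36 and 9.11 in control hearts and 8.59, 8.87, 8.90 and 8.62 in mutant hearts. All mutant hearts were below the controls, and the mutant level was 73.3% of the control level (log2 FC -0.45, standard error 0.19, limma adjusted p = 1.00). At E11.5 it was 8.07, 8.31, 7.71 and 7.48 against 8.24, 8.55, 8.16 and 7.66 in mutant hearts, which overlapped (log2 FC 0.26). S1pr1, a receptor for sphingosine-1-phosphate that stabilises vessels, was 10.74, 10.79, 10.83 and 10.73 in control hearts and 10.47, 10.64, 10.41 and 10.62 in mutant hearts at E13.5. Again no hearts overlapped (log2 FC -0.24, standard error 0.10, limma adjusted p = 1.00). Plvap, which forms the diaphragms of fenestrae and caveolae, was 10.83, 10.92, 10.58 and 10.99 in control and 10.54, 10.74, 10.16 and 10.55 in mutant hearts at E13.5. Its groups overlapped (log2 FC -0.34, standard error 0.13, limma adjusted p = 1.00).

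The shift at E13.5 was uneven among the hearts. As the median over the 32 pan-endothelial genes of each heart's difference from the control mean, the mutant hearts had -0.05, -0.10, -0.33 and -0.08, and the control hearts lay between -0.01 and 0.03. That mean includes the control hearts themselves, which draws their values towards 0 in all heart medians given here. Mutant replicate 3 was far below the rest, and without it the median log2 FC of these genes was -0.07 instead of -0.14. At E11.5 mutant hearts lay between -0.17 and 0.05 and control hearts between -0.06 and 0.07. The same mutant replicate 3 at E13.5 had the highest median over 5 epicardial markers, 0.85, where control hearts lay between -0.18 and 0.07. It was also highest over 6 haematopoietic and macrophage genes (0.60, controls -0.15 to 0.25) and lowest over 4 cushion genes (-0.44, controls -0.15 to 0.18). Over all mutant hearts at E13.5, 5 of 5 epicardial and 6 of 6 haematopoietic genes were above 0, as were 10245 of all 19937 genes. The part of these in the endothelial values was not tested.

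**Figure D3:**
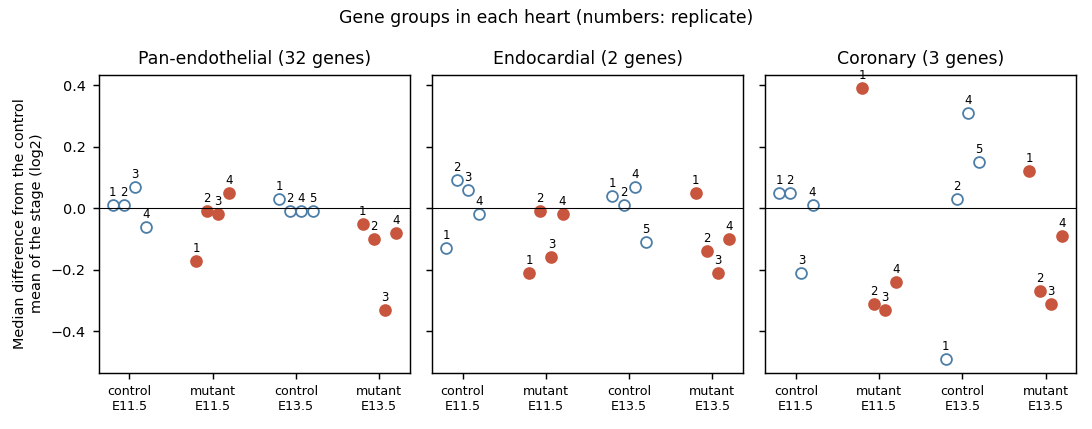
Median over each group of genes of a heart's difference in log2 expression from the control mean of its stage (y axis), for the 16 hearts by group (x axis), numbered by replicate. For the 32 pan-endothelial genes, all 4 mutant hearts at E13.5 lie at -0.05 or below, with replicate 3 at -0.33, and the endocardial and coronary groups overlap between genotypes.

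Whether the genotype difference itself changed between the stages was tested as an interaction. By limma, 0 of 37 genes passed and 0% of all genes did. At an unadjusted p under 0.05, 1 gene was above 0 and 2 below, where 2.12% and 1.85% of all genes were. Aplnr had a log2 FC of 0.26 at the earlier and -0.45 at the later stage, a difference of -0.71 (95% interval -1.27 to -0.14). For Cd34 the difference was 0.38 (0.04 to 0.73), as the distance between genotypes was smaller at E13.5, and for S1pr1 it was -0.32 (-0.61 to -0.03).

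For the endocardial genes, no difference between genotypes exceeded the spread of the hearts. Nfatc1, a transcription factor of endocardium and valve precursors, was 9.66, 9.75, 9.73 and 9.50 in control hearts and 9.38, 9.59, 9.41 and 9.65 in mutant hearts at E11.5. The ranges overlapped, and the 95% interval of the log2 FC of -0.15 ran from -0.38 to 0.08. At E13.5 Nfatc1 was 9.35, 9.26, 9.32 and 9.18 in control hearts and 9.44, 9.07, 9.00 and 9.14 in mutant hearts, with an interval from -0.34 to 0.12. Npr3, the natriuretic peptide clearance receptor, was 11.10, 11.44, 11.40 and 11.46 in control hearts and 11.20, 11.40, 11.27 and 11.33 in mutant hearts at E11.5. At E13.5 it was 11.28, 11.32, 11.39 and 11.16 against 11.23, 11.22, 11.14 and 11.22. The groups overlapped at both stages, with intervals from -0.25 to 0.16 and from -0.29 to 0.12.

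The coronary genes varied more between hearts of a group. Apln, the apelin ligand of tip cells, was 7.53, 7.86, 7.53 and 7.65 in control hearts and 8.03, 7.01, 7.32 and 8.13 in mutant hearts at E11.5. The mutant hearts lay on both sides of the controls (log2 FC -0.02, 95% interval -0.52 to 0.47). At E13.5 Apln was 8.36, 8.91, 9.18 and 9.05 in control hearts and 9.03, 8.71, 9.12 and 9.23 in mutant hearts, which overlapped (log2 FC 0.15). Fabp4, a fatty acid binding protein of capillary endothelium, was 7.01, 6.47, 6.22 and 6.03 in control hearts and 7.33, 6.12, 6.60 and 6.20 in mutant hearts at E11.5. At E13.5 Fabp4 was 8.74, 9.13, 9.66 and 9.38 against 8.61, 8.96, 8.89 and 9.04. Its groups overlapped at both stages, and the interval of the log2 FC ran from -0.44 to 0.70 and from -0.93 to 0.21. Gja4, which encodes the arterial connexin 37, was 9.31, 9.31, 8.93 and 9.50 in control hearts and 9.34, 9.29, 8.83 and 8.66 in mutant hearts at E11.5. At E13.5 Gja4 was 9.47, 9.30, 9.06 and 9.24 against 9.39, 8.96, 8.96 and 9.18, again with overlap (log2 FC -0.23 and -0.15).

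**Figure D4:**
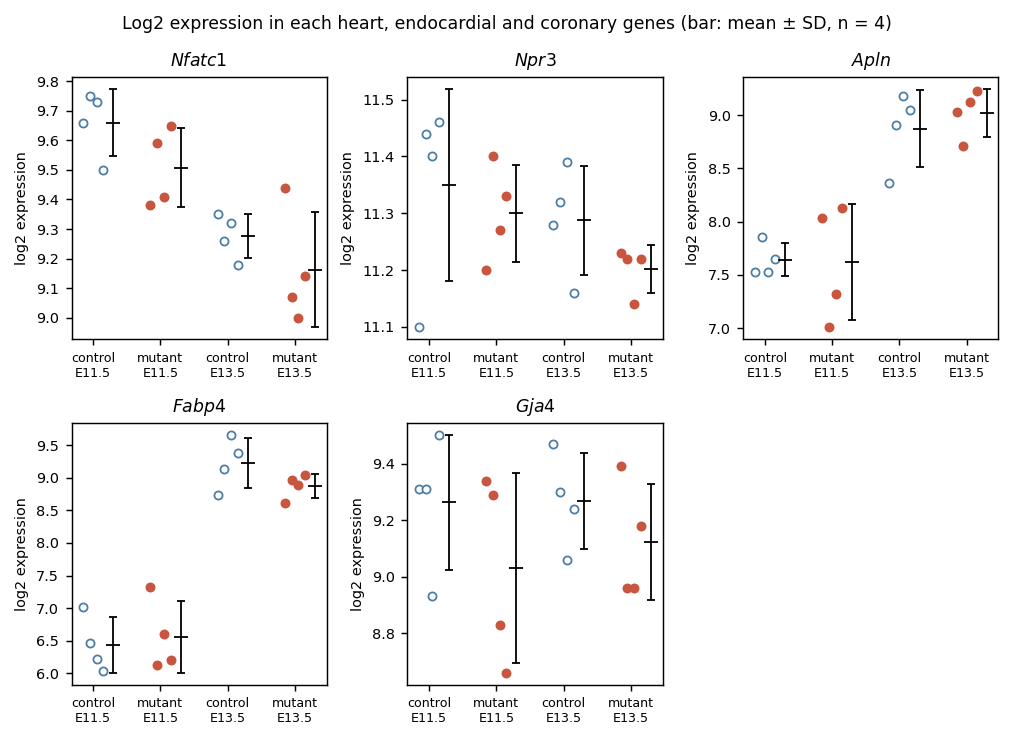
Log2 expression (y axis) of the 2 endocardial and 3 coronary genes in each of the 16 hearts (x axis: group), with open circles for control and filled circles for mutant hearts, and bars for mean ± SD (n = 4). Mutant and control hearts overlap for all 5 genes, while Fabp4 and Apln are far higher at E13.5 than at E11.5 in either genotype and Nfatc1 and Npr3 are not.

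The stages differed far more than the genotypes. In control hearts, 19 of 37 genes were upregulated from E11.5 to E13.5 and 0 downregulated, where 16.5% and 12.3% of all genes were. In mutant hearts 14 were upregulated and 0 downregulated, where 16.8% and 12.8% of all genes were. All 14 were among the 19, and Eng, Fli1, Plvap, S1pr1 and Sox7 passed in control hearts alone, though the interaction did not pass for any of them. Without the fold threshold, 23 were higher and 1 lower in control hearts (26.4% and 16.7% of all genes), and 19 and 1 in mutant hearts (26.9% and 17.4%). All E13.5 hearts were above all E11.5 hearts for 26 genes and below for 1 in controls (26.8% and 15.5% of all genes), and for 16 and 0 in mutants (24.8% and 14.2%). Without the hearts set apart, 18 and 14 genes were called. The median log2 FC was 0.54 in control and 0.37 in mutant hearts, where over all genes it was 0.04 in each. These medians depended on the scaling, with 0.31 and 0.14 after quantile normalisation and 0.29 and 0.13 after cyclic loess. Stage and any batch of hybridisation cannot be told apart, since the labels name none. Whether both stages were normalised together is also not settled. After quantile normalisation over all arrays, 13 were higher and 1 lower in control hearts and 12 and 2 in mutant hearts, and after cyclic loess 12 and 1, and 10 and 2. Other marker lists lay on both sides of 0 between stages in control hearts. Above 0 were 5 of 5 cardiomyocyte genes (median 0.36, 1 called higher) and 9 of 10 hypoxia-responsive genes (median 0.47, 2 called higher). Of all 19937 genes 10515 were above 0, and 16.5% were called higher. Medians were also above 0 for haematopoietic (0.34), megakaryocyte (0.10) and liver (0.08) genes. They were below 0 for cushion (-0.36), adipocyte (-0.28), erythroid (-0.23), epicardial (-0.15), glial (-0.12) and smooth muscle and pericyte (-0.02) genes. Their part in the endothelial values was not tested.

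Fabp4 had the largest difference between stages, with a control level at E13.5 that was 6.96 times that at E11.5 (log2 FC 2.80, standard error 0.27, limma adjusted p = 2.54e-06). In mutant hearts it was 4.97 times (log2 FC 2.31). Both folds start from a dim signal at E11.5, 6.03 to 7.01 in control and 6.12 to 7.33 in mutant hearts. Percentile 40 of the mean level over all probe sets was 6.34. Cldn5 followed (log2 FC 1.66 in control and 1.23 in mutant hearts), then Cd34 (1.43 and 1.81), Aplnr (1.30 and 0.59) and Apln (1.23 and 1.40). For each of these, all E13.5 hearts were above all E11.5 hearts in both genotypes. The call of Aplnr in mutant hearts was lost after quantile (0.42) and loess (0.40) normalisation, without mutant E11.5 replicate 4 (0.43), without mutant E13.5 replicate 3 (0.54) and without the hearts set apart (0.35), with limma adjusted p between 0.0532 and 0.21. Esam (1.22), Rasip1 (1.20), Sox18 (1.07) and Mmrn2 (1.05) were also upregulated in control hearts. Of the 32 pan-endothelial genes 17 were called higher in control hearts, with a median of 0.55. Of the endothelial markers, Pecam1 (0.22), Cdh5 (0.26), Kdr (0.18), Tie1 (0.22) and Tek (0.34) were not called in control hearts. Cldn5, of the same marker list, was called (1.66), as was the endoglin gene Eng (0.58).

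Of the endocardial genes, Nfatc1 had a log2 FC of -0.38 in control hearts (95% interval -0.61 to -0.15, limma adjusted p = 0.011) and -0.35 in mutant hearts (adjusted p = 0.0187), short of the fold threshold, and was called lower after quantile normalisation (-0.60 and -0.56). Npr3 had -0.06 and -0.10, with intervals across 0 (-0.27 to 0.14 and -0.31 to 0.10). The 4 further endocardial genes described below were all above 0 between stages. Among the coronary genes, Gja4 differed from Fabp4 and Apln, with 0.00 in control hearts and 0.09 in mutant hearts, and its sign depended on the scaling (-0.20 and -0.11 after quantile normalisation).

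**Figure D5:**
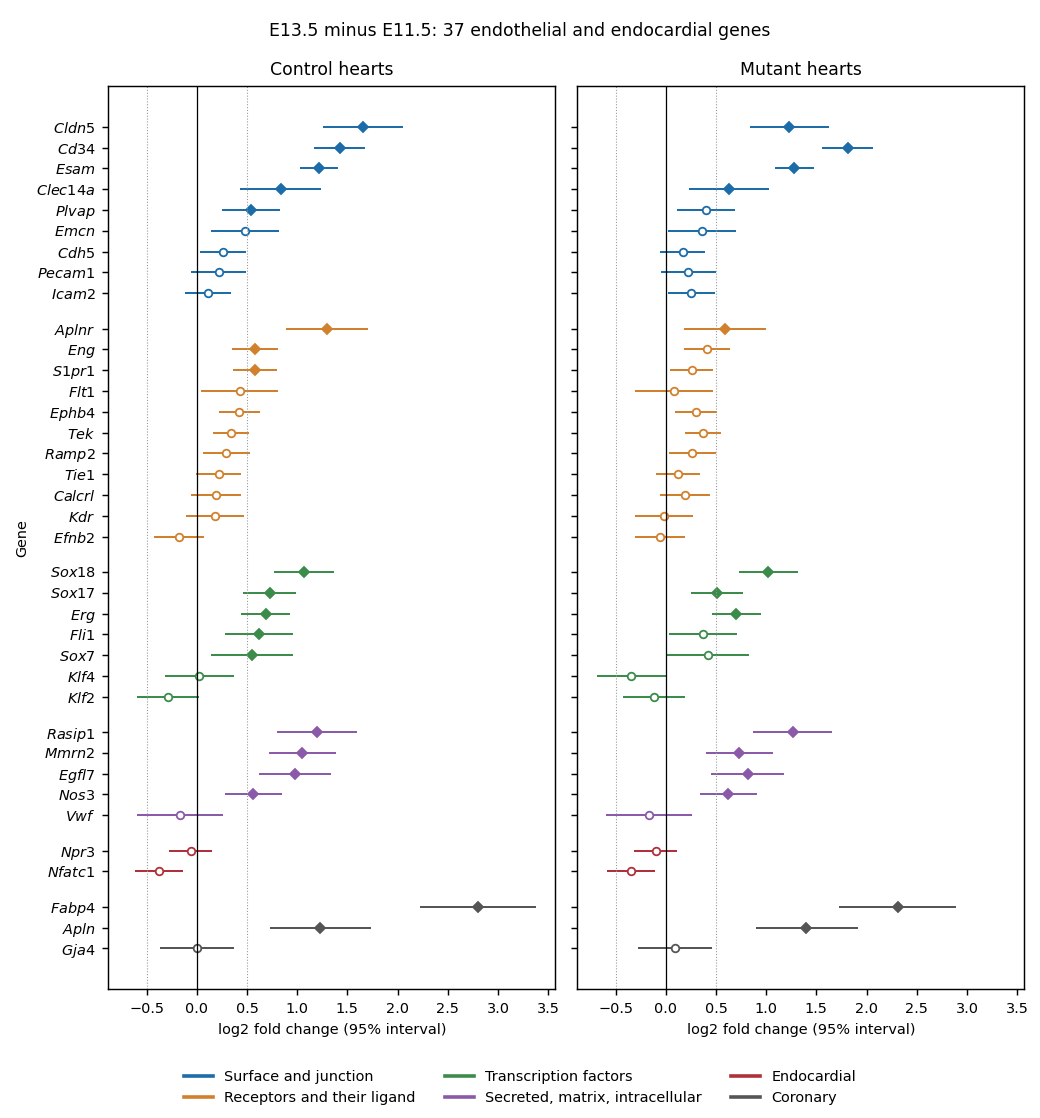
Log2 fold change of E13.5 over E11.5 (x axis) for each of the 37 genes (y axis), in control hearts on the left and mutant hearts on the right, with 95% intervals from limma and colours for the role of the gene. Filled diamonds mark called genes (19 in control and 14 in mutant hearts), with Fabp4 farthest right and Nfatc1 left of 0 in both.

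Ligands, receptors and factors of the surrounding pathways were read from a further list, of which 48 of 49 genes were measured. At E11.5 and E13.5 0 of the 48 were called by limma, while 6 were higher and 7 lower at E11.5 and 4 higher and 5 lower at E13.5 at an unadjusted p under 0.05. Over all genes these shares were 4.57% and 4.77% at E11.5, then 1.97% and 1.98%. Jag1, a Notch ligand, came closest at E11.5 (log2 FC -0.54, limma adjusted p = 0.0775) and was -0.12 at E13.5. Angpt1, the ligand of Tek, had -0.83 (adjusted p = 0.114) and then -0.68 (adjusted p = 0.688), and its antagonist Angpt2 had 0.17 and 0.65. Adm, the adrenomedullin ligand of Calcrl and Ramp2, had 1.21 and 0.62, beside -0.20 and -0.20 for Calcrl and -0.14 and -0.17 for Ramp2. The lymphatic and endothelial gene Lyve1 had 0.79 and 0.69. In control hearts 14 of the 48 were upregulated between stages (16.5% of all genes) and 1 downregulated (12.3%), Etv2 (log2 FC -0.62).

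Of 4 further endocardial and 10 further coronary or capillary genes, 0 were called between genotypes at either stage, where 0.15% of all genes or fewer were called in a direction. At an unadjusted p under 0.05 the endocardial genes held 1 higher and 2 lower at the earlier stage, then 1 and 1, and the coronary genes 1 and 2 at each stage, against the same shares of all genes as for the pathway list. The endothelin gene Edn1 had a log2 FC of 0.84 and 0.90 and Adgrg6 of -0.31 and -0.31. Gja5, the arterial connexin 40, had 0.52 at E13.5 (adjusted p = 0.122). Between stages in control hearts, 6 of the 10 coronary genes and 0 of the 4 endocardial genes were upregulated (16.5% of all genes), with Meox2 at 2.38 and Cd36 at 1.00. All 4 endocardial genes were above 0 in both genotypes, with medians of 0.28 in control and 0.40 in mutant hearts. Without the fold threshold, 1 of them was higher in control hearts (26.4% of all genes) and 2 in mutant hearts (26.9%).

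Of the markers of other cells and of hypoxia, only Rgs5 was called between genotypes, at E11.5, where 0.15% of all genes were called lower. All of 10 hypoxia-responsive genes had a log2 FC above 0 at E11.5, as did 10154 of all 19937 genes. The smallest limma adjusted p of the 10 was 0.172. Their heart medians were 0.26, 0.07, 0.16 and 1.03 in mutants and -0.03 to 0.05 in controls. Adm and Vegfa, 2 of the 10, are also in the pathway list. Of 6 megakaryocyte genes 4 were measured, with medians of -1.42 to -0.61 in mutant and -0.53 to 0.51 in control hearts at E13.5. For 4 cushion genes, mutant hearts had -0.37 to -0.30 and controls -0.20 to 0.07 at E11.5. Over 5 smooth muscle and pericyte genes, mutant hearts had -0.37 to 0.10 and controls -0.08 to 0.01 at E11.5. Of these 5, Rgs5 was downregulated (log2 FC -2.04, limma adjusted p = 0.034), and the median log2 FC of the list was -0.04, with 2 genes above 0. Cd34 is also made by haematopoietic progenitors, and over 6 haematopoietic and macrophage genes mutant hearts had medians of -0.30 to 0.45 at E11.5 where controls had -0.18 to 0.10. The part of these in the endothelial values was not tested.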

How the data were processed

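Total RNA of single hearts was amplified, labelled and hybridised to Affymetrix Mouse Gene ST arrays. RMA (affy package) was the normalisation the authors used, followed by limma. The deposited log2 values span 2.74 to 14.56. Versions are not given in the sources used here. RMA evens out differences between arrays in total signal, so a shift of all genes is not measured. Pairs of arrays of different stages shared 791 to 1293 exact values, where pairs shared 517 to 880 within E11.5 and 1541 to 1943 within E13.5. These counts cannot show whether both stages were normalised together, since equal values can also arise by chance. The stages were compared with that limit. The number of arrays limits the precision. The SD within an array was 2.18 to 2.26 at E11.5 and 2.38 to 2.42 at E13.5.

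Of 34760 probe sets, the platform annotation gave 21640 a single gene, 1321 several and 11799 none. A gene with several own probe sets (954 genes) was read from the brightest. All 16 arrays were fitted in limma 3.58.1 (R 4.3.3) with a mean per group, which left 12 residual degrees of freedom. Benjamini-Hochberg adjustment ran over all probe sets of a comparison. A call needed a log2 FC over 0.5 in size with an adjusted p below 0.05, and in the interaction at the adjusted p alone. Single genes were also compared by two-sided exact permutation tests of 4 hearts against 4. P-values measure the spread between these hearts. Promoters came from a RefSeq table of GRCm38.p6, searched for exact letters.

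The members and the lists were chosen with earlier results of these data known. Full values were given for called members, up to 6 members per stage with the smallest unadjusted p under 0.05, up to 3 in the interaction, the endocardial and coronary genes, and the 5 largest stage differences. Replicate numbers did not pair hearts (correlations of deviations -0.060 to 0.008). Alternatives were other normalisations, centring, priors and weights, no dim probe sets (below percentile 40), the mean of probe sets, a replicate term, a covariate of 3 Y-linked genes, each stage alone, no fold threshold, and leaving out each heart. Leaving out the 3 hearts set apart was chosen after seeing the data. Plots used matplotlib 3.10.9 (Python 3.11.15).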

Additional observations from a re-analysis of the deposited data

Results flagged for a closer look

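In 9 of 148 groups of 4 hearts (6.08%), the highest or lowest heart stood apart from the others by more than Dixon's 95% limit, and chance alone flags about 5% of groups. At E11.5, Plvap was 10.48 in control replicate 4 against 10.22 to 10.23, Klf2 was 8.87 in the same heart against 9.21 to 9.23, Calcrl was 10.74 in control replicate 2 against 10.59 to 10.61, and Ephb4 was 10.17 in mutant replicate 1 against 9.89 to 9.93. At E13.5, control replicate 1 had Vwf at 9.13 against 8.33 to 8.39 and Nos3 at 9.82 against 9.67 to 9.69. Mutant replicate 3 had Cdh5 at 11.70 against 11.94 to 11.97 and Npr3 at 11.14 against 11.22 to 11.23. Mutant replicate 1 had Clec14a at 8.82 against 7.87 to 7.98.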

How the results depend on the processing

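The count of members called at E11.5, 1 as reported, was 0 with the replicate block (Cd34 adjusted p = 0.0963), with the Y-linked covariate (0.0839), with the stage fitted alone (0.359) and without the hearts set apart (0.0611), and 0 to 1 leaving out each heart. The log2 FC of Cd34 was -0.65, -0.64, -0.65 and -0.71 in the former 4, against -0.65 as reported. Replicate numbers did not pair the hearts, so the block is no separate design. The count at E13.5 and in the interaction was 0 under every alternative run. The stage counts were 13 to 24 in control and 12 to 20 in mutant hearts. Pathway genes called at E11.5 were 1 with the trended and robust prior and without dim probe sets, and 0 to 1 leaving out each heart. Further endocardial and coronary genes called at E13.5 were 1 with the trended prior, with array weights and without dim probe sets, and 0 to 1 leaving out each heart. The pan-endothelial median at E13.5 was -0.10 with the Y-linked covariate. Leaving out each heart, that median ran from -0.17 to -0.07 and at E11.5 from -0.09 to 0.03, and the coronary median at E11.5 from -0.16 to 0.18.

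Signs turned for the following values, none of them called as reported. Without the hearts set apart, S1pr1 at E11.5 was -0.04, Klf4 at E13.5 -0.07, Apln at E13.5 -0.02, Gja4 at E11.5 0.05, and the stage difference of Gja4 -0.06 in control and -0.19 in mutant hearts. After quantile and loess normalisation the control stage difference was -0.11 and -0.14 for Klf4 and -0.20 and -0.22 for Gja4, and the mutant one -0.11 and -0.14 for Gja4. With the replicate block the control stage difference was -0.02 for Klf4 and -0.06 for Gja4. Leaving out each heart, values ran from -0.10 to 0.01 for Efnb2 between stages in mutants, from -0.07 to 0.16 for Klf4 at E13.5 and -0.06 to 0.17 between stages in controls, from -0.19 to 0.18 and -0.02 to 0.25 for Apln at E11.5 and E13.5, from -0.13 to 0.32 for Fabp4 at E11.5, and for Gja4 between stages from -0.11 to 0.08 in controls and -0.03 to 0.19 in mutants. The causes were not tested.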
